A study of Mus musculus with 46 samples.

Results

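The 10 genes described here are Il1a, Il1b, Il1rn, Il6, Il18, Il34, Tnf, Csf1, Nlrp3 and Casp1. They encode parts of the inflammasome, proinflammatory cytokines, an antagonist of the IL-1 receptor and growth factors of macrophages. They were chosen by name, as the rows of the deposited expression table that carry these symbols, and all 10 were found among 53465 genes. Each was followed in 4 cell populations sorted from mouse kidneys: macrophages, stromal and endothelial cells, and the tubular cells of the proximal segment (PT).

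IL-1α and IL-1β, encoded by Il1a and Il1b, act on the IL-1 receptor, and the receptor antagonist encoded by Il1rn blocks that receptor. Pro-IL-1β and pro-IL-18 are cleaved by caspase-1 (Casp1) after a sensor such as NLRP3 assembles an inflammasome, so that RNA levels speak of the precursors and not of the released cytokines. TNF and IL-6 are secreted signals whose genes are classical targets of NF-κB. CSF1 and IL-34 are ligands of the same receptor, CSF1R, through which macrophages receive survival and growth signals, and the tubular epithelium of the kidney is a known source of IL-34.

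The mice were wild-type male C57BL/6 animals of 8 to 12 weeks. They had sham surgery, unilateral ureteric obstruction (UUO), or UUO followed by reversal of the obstruction (rUUO). The study's methods place the cull at day 2 or day 7 of UUO and at 14 days after reversal, and the labels do not say which day a UUO sample comes from. Sorting used LTL for PT cells, F4/80 at a high level for macrophages, CD31 for endothelial cells and PDGFRB for stromal cells, and each sample is RNA of a sorted population that was amplified as cDNA before sequencing. In the columns that could be mapped, PT cells had 3 sham, 4 UUO and 3 rUUO samples, macrophages had 4, 4 and 3, endothelial cells had 4, 3 and 4, and stromal cells had 4 of each. One PT sample, counted as UUO replicate 2, has a title that names both sham and UUO, and its treatment label says UUO. Without it Il34 (3.42, limma adjusted p = 6.27e-05) and Csf1 (1.27, adjusted p = 0.0331) still passed in UUO against sham. The labels do not say whether samples of a group came from separate mice, so that the p-values measure the spread between these samples.

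Values are FPKM, read fragments normalised to transcript length and to the size of the library, which compare levels between genes per length. The table holds no counts, so the absolute depth is unknown, and relative depth read from low values ran from 0.606 to 1.61 with 1 as the median sample. In sham kidneys each sort was highest in the markers of its own cell type. The summed FPKM of 10 macrophage markers was 8329 to 10524 in sham macrophages and at most 68.2 in the other sham samples. Tubular markers were also present in other sorts. Those of the loop of Henle and distal nephron summed to 467 to 622 FPKM in sham stromal and 198 to 978 in sham endothelial samples. Proximal tubule markers summed to 210 to 313 FPKM in sham endothelial samples, against 2223 to 2905 in sham PT samples. Mitochondrial genes took 58.7% to 75.6% of the FPKM sum in PT samples and 20.2% to 45.8% in the others. In bulk RNA of a sorted population, fewer cells of a type and less RNA per cell cannot be told apart.

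On GRCm38, 3 of the genes lie on chromosome 2. Il1a (chr2:129299610-129309972) and Il1b (chr2:129364570-129371139) are neighbours on the minus strand with 54597 bases between them, and Il1rn (chr2:24336853-24351494) is on the plus strand. Casp1 (chr9:5298517-5307265) and Il18 (chr9:50554827-50581840) share chromosome 9. The others are Il6 (chr5:30013114-30019981), Il34 (chr8:110741829-110805924), Tnf (chr17:35199381-35202007), Csf1 (chr3:107741048-107760469) and Nlrp3 (chr11:59541568-59566956). Il1a, Il1b, Il18 and Il34 overlap genes on the opposite strand, and since the counting is not stated to use strand, reads in the shared stretches cannot be told apart.

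Several genes of the set are known targets of NF-κB and AP-1, so their start sites were searched for the letters of both motifs. RefSeq windows on GRCm38.p6, from 250 bases before to 50 bases after the start, were held for 9 of the 10 genes, and none was held for Il34. The κB motif was searched as GGGA and CC with 4 bases of any kind between them, and the AP-1 motif as TGANTCA, each on both strands. The κB letters stood in windows of 5 of the 9 genes, against 22.9% of 27025 genes, and the AP-1 letters in windows of 3, against 8.97%. Il1rn and Nlrp3 have more than 1 window each. Lines below give the stretches on the strand of the gene, 5′ to 3′, with the motif in capitals.
Il6, κB, chr5:30013061-30013088, plus strand: atcaaatgtGGGATTTTCCcatgagtct
Csf1, κB, chr3:107760606-107760633, minus strand: gggccttgaGGGAAAGTCCctaggggcc
Nlrp3, κB, chr11:59541374-59541401, plus strand: gcttctgcaGGGAACCCCCgggaattct
Il1rn, κB, chr2:24336797-24336824, plus strand: taggagtatGGGAGTGGCCatctccccc
Il1rn, AP-1, chr2:24336709-24336735, plus strand: tctgctagacTGAGTCAcgcctctgga
Il1a, AP-1, chr2:129309968-129309994, minus strand: cagagaagccTGACTCAgacttaagtc
The Il6 motif starts 44 bases and the Csf1 motif 155 bases before the start of the gene, and each overlaps a match on the other strand shifted by a single base. In Il1rn the AP-1 letters lie 141 bases and the κB letters 54 bases before the start. In Il1a the AP-1 letters begin 12 bases before the start. Csf1 held the κB letters once more on the other strand 231 bases before its start, Tnf held them after its start and Il6 held AP-1 letters at the far edge of its window, and these stretches are not shown. Il1b, Il18 and Casp1 held neither motif, which says only that these letters are not in these windows. A match is a description of the letters and not evidence of binding.

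Without obstruction, the genes divided by population. Macrophages held the highest mean level of Il1b, Il1rn, Il18, Tnf, Nlrp3 and Casp1, endothelial cells that of Csf1 and Il1a, and stromal cells that of Il34, while Il6 was at most 0.16 FPKM in every sham sample. Differences among the sham samples were tested with limma after taking log2(FPKM + 1), and p-values were adjusted by Benjamini-Hochberg over 14204 genes with a threshold of 0.05, and 8 of the 10 genes had a mean of at least 1 FPKM over them. Il1a and Il6 did not. Between macrophages and stromal cells all 8 tested genes passed (48.1% of all genes tested), and 7 passed between macrophages and endothelial cells (45.7%) and between PT cells and macrophages (64.9%). Nlrp3, Tnf, Il1rn and Il18 reached the filter through macrophages, so that their calls against macrophages follow in part from the filter and these counts are a description only. Nlrp3, Tnf and Il1rn were near 0 elsewhere and could hardly pass between the other populations. There, 2 genes passed between PT and endothelial cells (62.3%), 2 between PT and stromal cells (67.6%) and 3 between endothelial and stromal cells (24.2%).

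**Figure D1:**
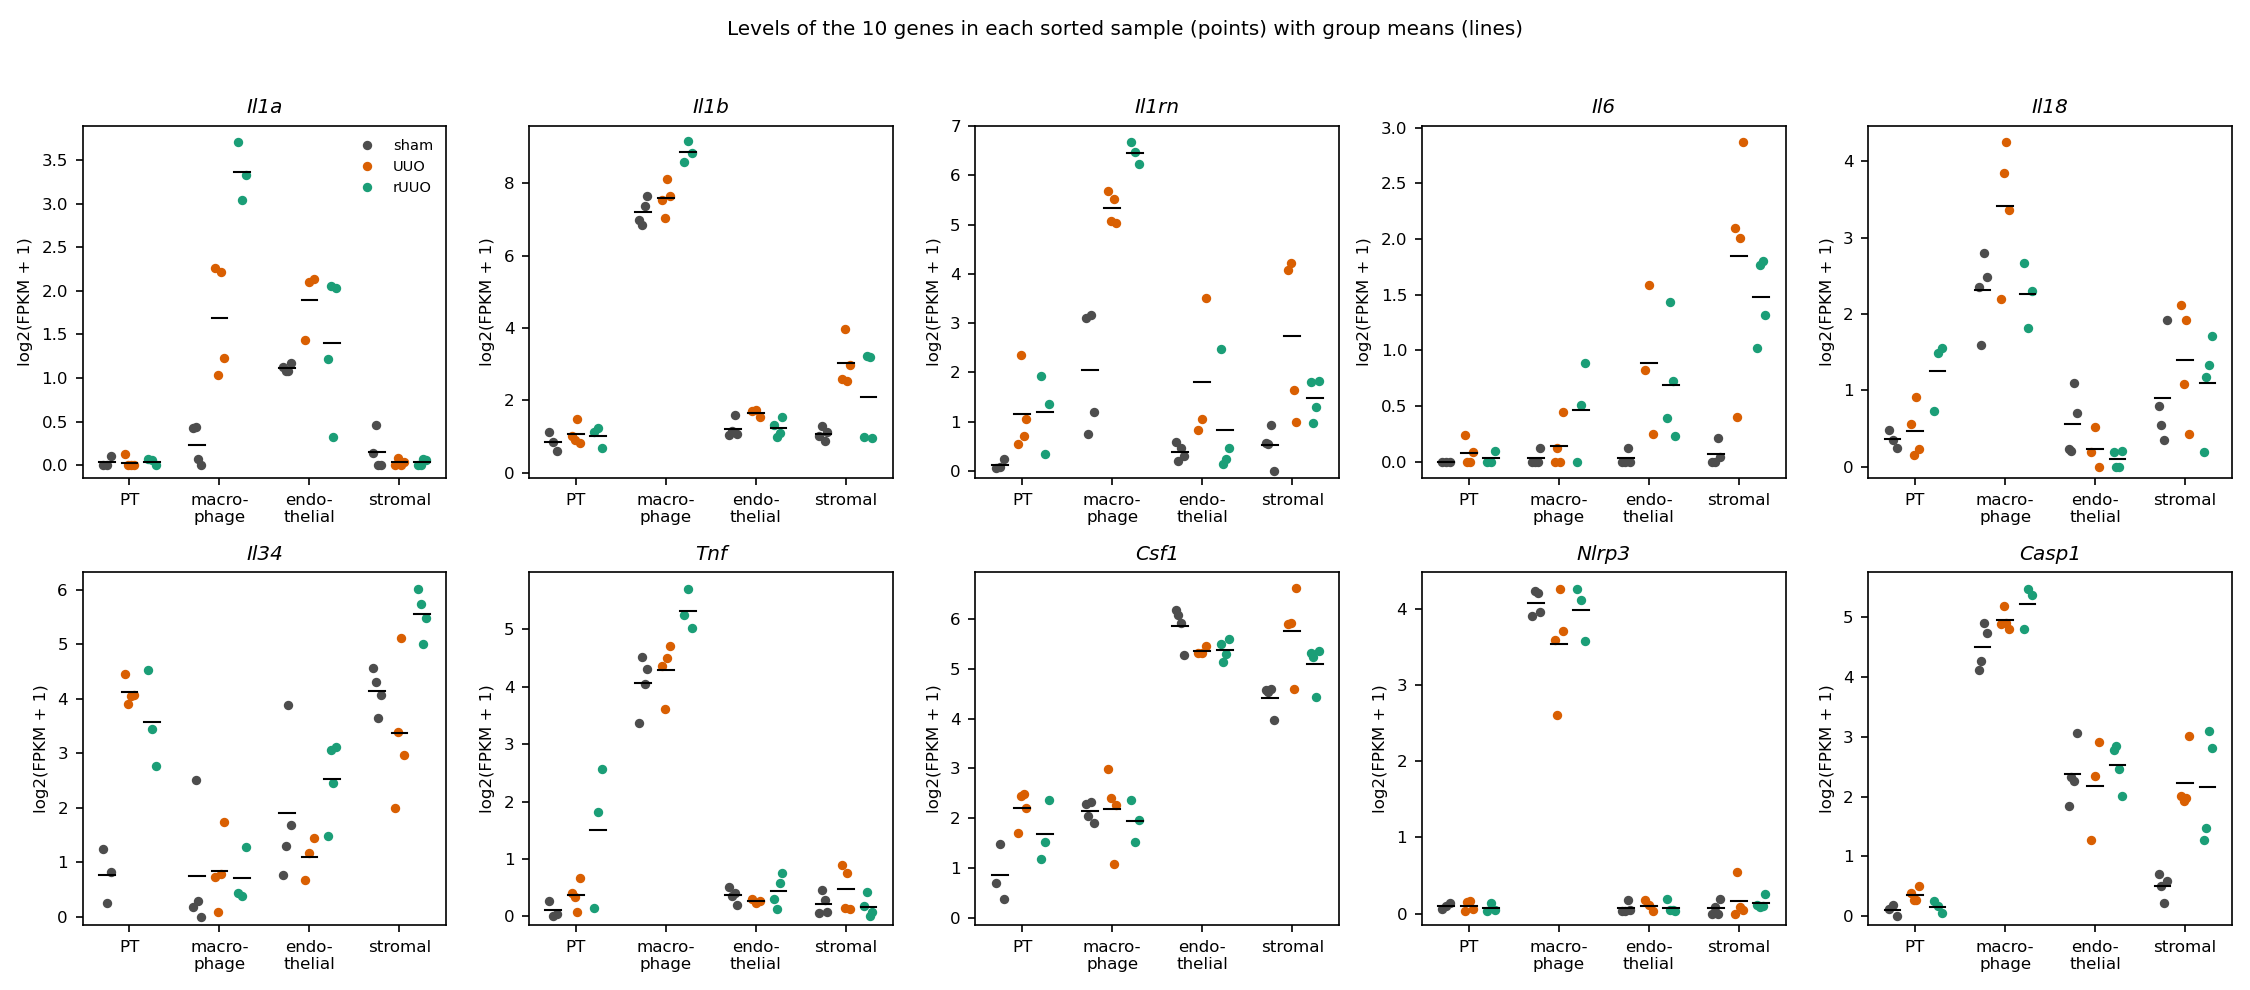
Level of each of the 10 genes in every sample, as log2(FPKM + 1) on the y axis, by population on the x axis and surgery by colour, with points for samples and lines for group means. Nlrp3, Tnf and Il1b are high in macrophages, Csf1 in endothelial and stromal cells, and Il34 in stromal cells and in PT cells after UUO.

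The inflammasome sensor Nlrp3 stood high in the macrophage sort alone. Its FPKM in the 4 sham macrophage samples was 14, 17.85, 17.52 and 14.57, and no sample of the other 3 populations exceeded 0.46 FPKM under any surgery. Between macrophages and endothelial cells of sham kidneys the difference was 4.01 on the log2 scale (SE 0.21, limma adjusted p = 3.46e-11). The levels in PT, endothelial and stromal cells were too near 0 to be ordered. Casp1, the effector protease, was broader: 16.43, 18.23, 28.86 and 25.77 FPKM in sham macrophages, 2.59, 4.04, 3.8 and 7.35 in sham endothelial cells, and at most 0.62 in sham stromal or PT cells. The macrophage and endothelial groups did not overlap, with a difference of 2.13 (SE 0.28, limma adjusted p = 5.26e-06), endothelial cells stood 1.88 above stromal cells (adjusted p = 4.57e-05), and stromal and PT cells, the neighbours at the low end, did not pass (adjusted p = 0.245).

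Il1b was the most abundant of the 10 genes in macrophages and had the highest level of any of them. In sham macrophages it had 126.2, 114.04, 165.15 and 200.33 FPKM, and in the sham samples of the other populations it stayed between 0.51 and 2.04 FPKM. Macrophages stood 6.00 log2 units above endothelial cells (SE 0.24, limma adjusted p = 1.105e-12). The other 3 populations did not pass against each other. Tnf followed the same order with 9.28, 21.97, 15.62 and 18.86 FPKM in sham macrophages and under 0.5 FPKM in every other sham sample. Il18 was lower, at 4.13, 2.01, 5.98 and 4.62 FPKM in sham macrophages, where it exceeded endothelial cells by 1.75 (adjusted p = 0.0005684) and stromal cells by 1.40 (adjusted p = 0.00308), although a stromal sham sample with 2.8 FPKM overlapped the macrophages.

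The receptor ligands had another order. Csf1 had 71.29, 67.33, 60.14 and 38.12 FPKM in sham endothelial cells, 22.82, 22.22, 23.04 and 14.72 in stromal cells, 2.72 to 4.01 in macrophages and 0.3 to 1.79 in PT cells. Every neighbour in that order differed: endothelial minus stromal cells gave 1.46 (limma adjusted p = 0.0004225), macrophages minus stromal cells −2.28 (1.21e-06) and PT cells minus macrophages −1.28 (0.0008425). All genes together had a median of −0.90 for PT cells minus macrophages on this scale. The Csf1 difference between PT cells and macrophages was −0.38 under quantile normalization (adjusted p = 0.257) and −0.63 when samples were rescaled without mitochondrial genes (adjusted p = 0.0808). Il34 had 22.66, 18.75, 11.56 and 15.74 FPKM in sham stromal cells against 0.7, 1.47, 13.8 and 2.21 in endothelial cells, at most 4.71 in macrophages and at most 1.36 in PT cells. Endothelial minus stromal cells gave −2.24 (SE 0.60, limma adjusted p = 0.00998), a difference whose adjusted p was 0.0600 with a pseudocount of 0.1, and the lower 3 populations did not pass against each other. The endothelial sample with 13.8 FPKM also had 978 summed FPKM of the 8 loop of Henle and distal nephron markers, against 198 to 368 in the other endothelial sham samples. The macrophage sham sample with 4.71 FPKM likewise had the highest sum of its group, 115 against 65.2 to 84.6. The stromal sham samples, highest in Il34, had 467 to 622 summed FPKM of these markers. The part of these tubular genes in the Il34 values was not tested.

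In macrophages after UUO, RNA of the IL-1 receptor antagonist (Il1rn) and of IL-1α (Il1a) rose, while Il1b, Tnf, Nlrp3 and Casp1 did not pass the test. Il1rn had 7.61, 0.68, 7.94 and 1.29 FPKM in sham, 50.58, 32.82, 44.87 and 31.7 in UUO, and 101.05, 87.11 and 73.92 in rUUO. The 3 groups did not overlap, and all UUO samples lay below all rUUO samples. Mean FPKM was 4.38 ± 3.93 (SD, n = 4) in sham kidneys, 40.0 ± 9.24 (SD, n = 4) after UUO and 87.4 ± 13.6 (SD, n = 3) after reversal. Il1rn rose by 3.28 log2 units in UUO (SE 0.46, limma adjusted p = 0.00104) and by 4.40 in rUUO against sham (SE 0.50, adjusted p = 0.000178). In all, 2 of the 8 genes tested in macrophages passed in UUO against sham, both higher, against 4.99% of 13332 genes (2.86% higher), and 4 passed in rUUO against sham, all higher, against 3.44% (1.89% higher). Il1a, with a sham mean of 0.19 FPKM, reached the filter through UUO and rUUO and could hardly be called lower.

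Il1a, whose protein is active without cleavage by caspase-1, was near 0 in sham macrophages, with 0.34, 0.36, 0.05 and 0 FPKM. It reached 3.79, 1.05, 3.64 and 1.34 FPKM in UUO and 12.09, 7.21 and 9.04 in rUUO, again with no overlap between groups. The log2 change was 1.45 in UUO (SE 0.37, limma adjusted p = 0.0384) and 3.12 in rUUO against sham (SE 0.40, adjusted p = 0.0004655). The UUO call was lost without a filter on low values (adjusted p = 0.0968) and when any library of the macrophage fit was left out other than UUO replicates 2 and 4 (adjusted p from 0.0519 to 0.106), and the rUUO call was kept in each of these fits. On a scale with a pseudocount of 0.1 the changes were 3.24 and 5.31.

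Il1b and Tnf passed in rUUO against sham. Il1b had 186.45, 130.14, 274.8 and 198.44 FPKM in UUO, overlapping the sham samples, and 384.82, 573.34 and 456.72 in rUUO, above every other macrophage sample. Its log2 change was 0.37 in UUO (SE 0.24, limma adjusted p = 0.429) and 1.65 in rUUO against sham (SE 0.26, adjusted p = 0.00218). Tnf had 19.61, 11.28, 21.73 and 25.12 FPKM in UUO and 36.9, 51.31 and 31.68 in rUUO, where all 3 samples lay above all sham and UUO samples. The Tnf change in rUUO against sham was 1.27 (SE 0.32, limma adjusted p = 0.0446), close to the threshold: it was lost in 10 of 11 fits that each left out a library, all but the fit without UUO replicate 2 (adjusted p from 0.0514 to 0.193), without a filter on low values (adjusted p = 0.12) and without an intensity trend (adjusted p = 0.0828). In UUO against sham the Tnf change was 0.24 (adjusted p = 0.720).

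The genes of the inflammasome sensor and protease did not pass the test in macrophages in any comparison. Nlrp3 had 11.02, 5.07, 18.22 and 12.05 FPKM in UUO and 18.16, 16.36 and 10.91 in rUUO, overlapping the sham samples, with a change of −0.54 in UUO against sham (SE 0.31, limma adjusted p = 0.370). Casp1 had 28.65, 35.67, 28.96 and 26.85 FPKM in UUO and 26.89, 43.61 and 40.53 in rUUO, with changes of 0.44 (SE 0.23, limma adjusted p = 0.309) and 0.71 (SE 0.25, adjusted p = 0.149) against sham. Il18, the other caspase-1 substrate, had 3.6, 13.4, 18.1 and 9.28 FPKM in UUO and 5.38, 2.54 and 3.94 in rUUO. Its change in UUO was 1.11 (SE 0.42, limma adjusted p = 0.159), with the sample at 3.6 FPKM inside the sham range and the other 3 above it, and without that sample, UUO replicate 1, the change was 1.51 (adjusted p = 0.0432). Bco2, on the other strand, overlaps the start of Il18 and had 2.26 to 6.68 FPKM in sham and 0.66 to 3.87 in UUO macrophages. Csf1 stayed at 1.12 to 6.9 FPKM in macrophages of all groups.

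Between rUUO and UUO macrophages no gene of the set passed limma's test, and 0 of all 13332 genes did (0% called). At an unadjusted p under 0.05 were 5 of the 8: Il1a, Il1b, Tnf and Il1rn, each higher in every rUUO sample than in every UUO sample, and Il18, lower on average. The shares of all genes at that unadjusted p, or without overlap between these groups, were not counted, so that this is a description only. Il1b differed by 1.28 (SE 0.26, limma adjusted p = 0.127) and Il1a by 1.67 (SE 0.40, adjusted p = 0.285). With the spread estimated over all 4 populations, Il1a passed (adjusted p = 0.00148) as the only 1 of the 8, among 86 of 13332 genes.

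**Figure D2:**
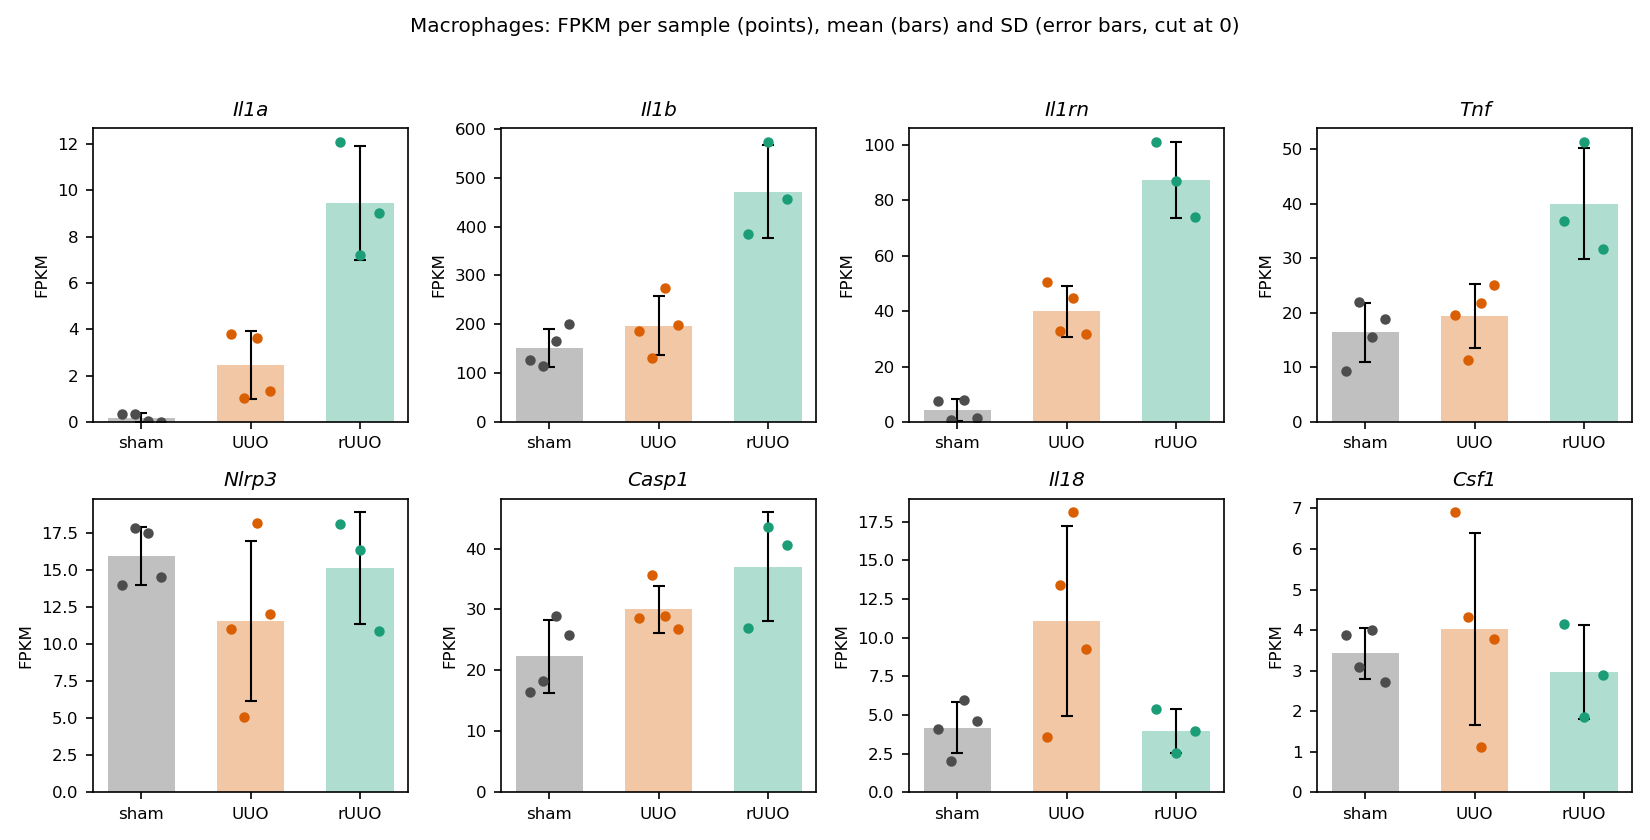
FPKM (y axis) of 8 genes in macrophages of sham, UUO and rUUO kidneys (x axis), with a point per sample, bars for means and error bars for the SD. Il1rn, Il1a, Il1b and Tnf are highest in the 3 rUUO samples, while Nlrp3 overlaps between all groups.

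Other quantities moved along these macrophage groups. The sum of 13 immediate early genes, which respond to injury and also to tissue dissociation, was 823 to 1134 FPKM in sham, 1470 to 2056 after UUO and 2526 to 3087 in rUUO macrophages. The 8 neutrophil markers summed to 26.5 to 78.9 FPKM in sham, 53.2 to 249 after UUO and 101 to 130 in rUUO, 2 of 4 tested passed in UUO against sham, and S100a9 rose by 2.84 in UUO (limma adjusted p = 0.00975), a call lost without a filter on low values. Monocyte markers summed to 59.8 to 110 FPKM in sham, 282 to 312 after UUO and 137 to 165 in rUUO, with 3 of 6 tested rising, among them Plac8 by 2.15 (adjusted p = 0.00692) and Ccr2, the most abundant, by 1.61 (adjusted p = 0.000164). Lymphocyte markers summed to 43.2 to 57.8 FPKM in sham, 32.6 to 152 after UUO and 49.8 to 74.2 in rUUO. Their 3 largest called changes without overlap in UUO against sham were all higher. These were Cd3e (2.74, limma adjusted p = 0.0246), Trac (2.39, adjusted p = 0.0471) and Cd79a (2.14, adjusted p = 0.0258). Each of these calls was lost without a filter on low values. The part of these in the cytokine values was not tested.

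For the wider pathway in macrophages, the counts in UUO against sham stand beside 4.99% of all genes called, and with so few genes in a list they are given as a description only. Of 18 tested inflammasome sensors, adaptors and executioners, 1 rose, Mefv, which encodes the sensor pyrin (change 1.83, limma adjusted p = 0.0183). Of 13 other IL-1 family ligands, receptors and decoys, Il18bp, the decoy for IL-18, rose by 1.00 (adjusted p = 0.0157) and Il18r1, a subunit of the IL-18 receptor, fell by 1.95 on the log2 scale, from 4.21 ± 1.74 to 0.320 ± 0.237 FPKM (SD, n = 4 each, adjusted p = 0.00613). The Il18bp call was lost in the fit on all 4 populations. Of 12 genes of the IL-6 family, 2 rose, among them Osm, encoding oncostatin M, from 1.80 ± 1.08 to 12.4 ± 3.53 FPKM (change 2.30, adjusted p = 0.000773). None of 13 NF-κB subunits and inhibitors passed limma's test, with 4 of them at an unadjusted p under 0.05. The share of all macrophage genes at that unadjusted p was not counted. Of 15 TNF receptor and signalling genes only Tnfaip3 passed. Csf2rb, the shared receptor chain for GM-CSF and IL-3, rose by 0.77 (adjusted p = 0.0215), which was lost without an intensity trend and in the fit on all 4 populations. The median change of these lists lay between −0.17 and 0.17, beside −0.03 for all genes.

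In PT cells the largest response of the set was that of Il34. It had 1.36, 0.19 and 0.77 FPKM in sham, 21.03, 14.06, 15.57 and 15.84 in UUO, and 22.04, 9.94 and 5.81 in rUUO. All UUO and all rUUO samples lay above all sham samples. The mean went from 0.773 ± 0.585 FPKM (SD, n = 3) to 16.6 ± 3.04 (SD, n = 4) and 12.6 ± 8.44 (SD, n = 3), and Il34 rose by 3.35 log2 units in UUO (SE 0.37, limma adjusted p = 1.46e-05) and by 2.81 in rUUO against sham (SE 0.40, adjusted p = 0.0004114). Over all 18 alternative fits of the UUO comparison the call was kept.

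Csf1, the other ligand of CSF1R, had 0.63, 1.79 and 0.3 FPKM in sham PT cells, 2.23, 4.48, 4.6 and 3.59 in UUO and 1.25, 1.85 and 4.12 in rUUO. The sham and UUO groups did not overlap, and Csf1 rose by 1.35 in UUO (SE 0.37, limma adjusted p = 0.0140). The call was lost under quantile normalization (0.81, adjusted p = 0.145), without a filter on low values (adjusted p = 0.0565) and without sham replicate 4 (1.12, adjusted p = 0.0737). In UUO against sham 2 of 4 tested genes passed in PT cells, both higher, against 32.8% of 11416 genes (27.9% higher), in rUUO against sham 1 passed, higher (7.46% of genes, 6.52% higher), and in rUUO against UUO none did (3.83%), with 0 of the 4 at an unadjusted p under 0.05. Il34 and Csf1, with sham means of 0.773 and 0.907 FPKM, reached the filter through UUO and rUUO and could hardly be called lower. All genes tested in PT cells had a median change of 0.51 in UUO against sham, which quantile normalization brought to −0.02, with 85.0% of the calls higher in the former and 51.8% in the latter.

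Markers of other nephron segments moved in the same PT samples. Loop of Henle and distal nephron markers summed to 60.0 to 61.8 FPKM in sham, 463 to 573 after UUO and 192 to 288 in rUUO PT samples. Most of the UUO sum came from Atp6v1g3, a subunit of the proton pump of intercalated cells, and Umod. The mean of Atp6v1g3 was 5.5 FPKM in sham and 283 in UUO (change 5.45), and that of Umod 17.4 and 147 (change 3.01). Of the 9 proximal tubule markers 7 fell in UUO, and their sum was 2223 to 2905 FPKM in sham and 717 to 1153 in UUO. The antisense gene Gm15895, which overlaps the start of Il34 on the other strand, had 0 to 0.94 FPKM in sham, 4.82 to 11.9 after UUO and 1.5 to 5.72 in rUUO PT cells. The part of these in the Il34 change was not tested. Macrophage markers summed to 24.7 to 39.7 FPKM in sham and 20.9 to 52.4 in UUO PT samples.

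**Figure D3:**
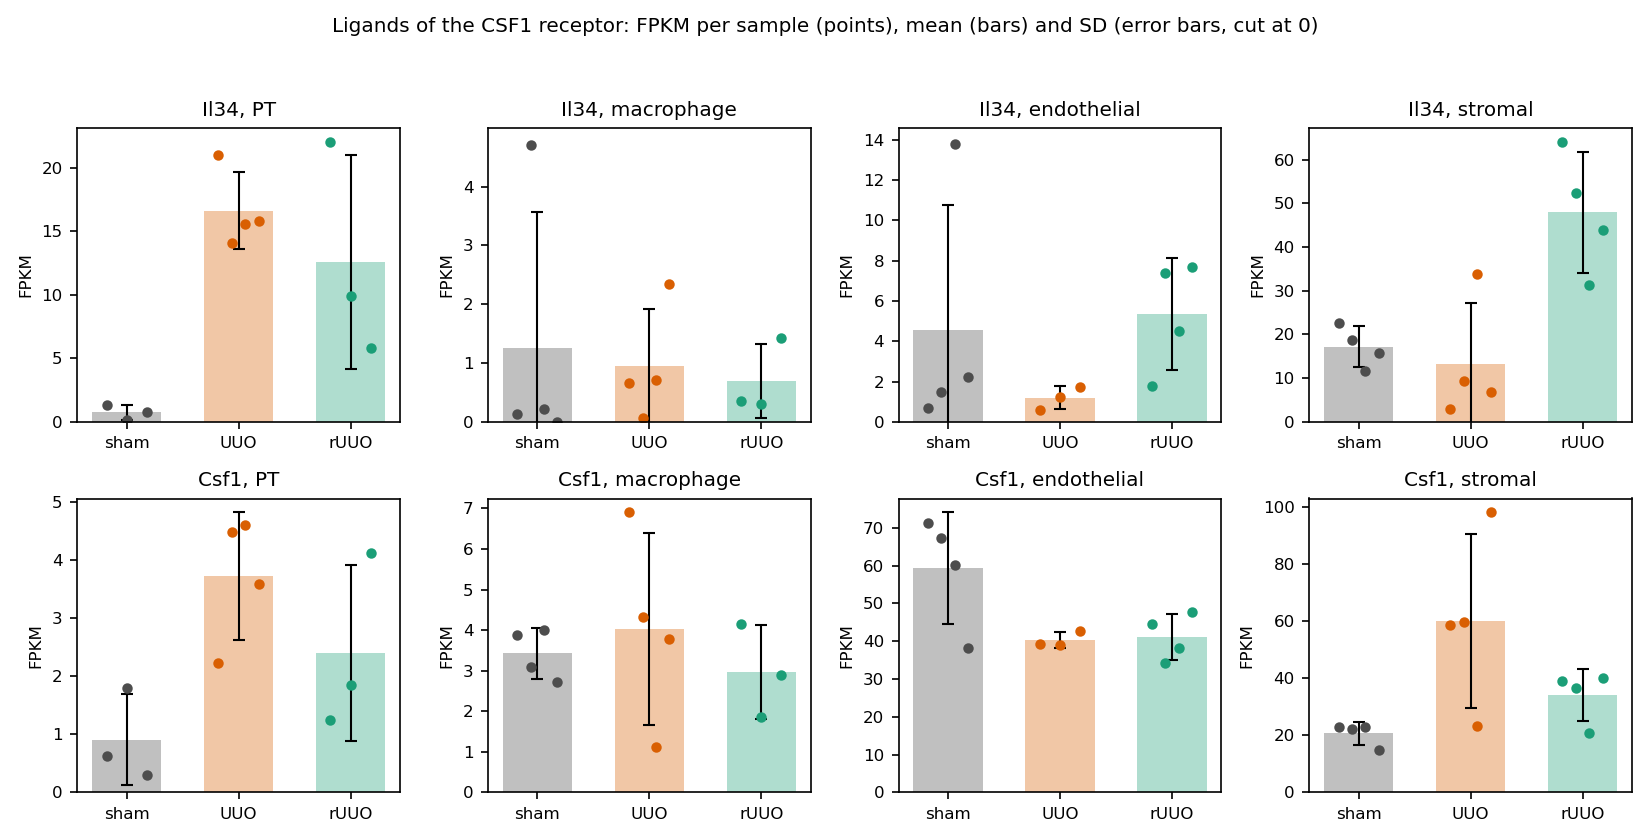
FPKM (y axis) of Il34 and Csf1 in each population by surgery (x axis), with a point per sample, bars for means and error bars for the SD. In PT cells the 4 UUO samples of Il34 sit between 14.06 and 21.03, above the sham samples, and in stromal cells the 4 rUUO samples sit between 31.36 and 63.98.

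In stromal cells Il34 took another course. It had 3.0, 9.44, 33.75 and 6.8 FPKM in UUO and 63.98, 52.43, 31.36 and 43.82 in rUUO, beside 11.56 to 22.66 in sham. In UUO, 3 samples lay below the sham range and replicate 3 above it, with a change of −0.78 (SE 0.48, limma adjusted p = 0.253). Without that sample the change was −1.36 (adjusted p = 0.00822). From UUO to rUUO Il34 rose by 2.20 (SE 0.48, limma adjusted p = 0.0195), with rUUO replicate 4 below UUO replicate 3, and this was the only 1 of 7 tested genes to pass in that comparison (4.17% of 14033 genes). The call was lost without rUUO replicate 1 (2.05, adjusted p = 0.0582), without rUUO replicate 2 (2.14, adjusted p = 0.0546) and without a filter on low values (adjusted p = 0.0895). In rUUO against sham the groups did not overlap and the change was 1.42 (SE 0.48, adjusted p = 0.0528), which passed without UUO replicate 1 (adjusted p = 0.0201) or UUO replicate 3 (adjusted p = 0.00535). Gm15895, on the other strand at the start of Il34, had 0 to 3.6 FPKM in sham, 0 to 0.3 after UUO and 0.38 to 6.43 in rUUO stromal cells.

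Stromal Csf1 rose in UUO. It had 22.82, 22.22, 23.04 and 14.72 FPKM in sham, 58.78, 59.79, 23.34 and 98.13 in UUO and 39.22, 36.61, 20.68 and 40.18 in rUUO. The mean went from 20.7 ± 4.00 FPKM to 60.0 ± 30.6 (SD, n = 4 each), with the lowest UUO sample just above the highest sham sample, and the log2 change was 1.35 (SE 0.35, limma adjusted p = 0.00882). From UUO to rUUO the change was −0.67 (adjusted p = 0.298), and −1.06 without UUO replicate 3 (adjusted p = 0.0383). Csf1r, the receptor, fell in stromal samples from 10.2 ± 2.64 to 3.15 ± 0.855 FPKM (change −1.42, adjusted p = 0.00143), while in macrophages it had 372 to 691 FPKM in all groups.

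Endothelial cells, the richest sham source of Csf1, gave no called change for any gene of the set. Csf1 had 39.15, 38.86 and 42.77 FPKM in UUO and 44.54, 34.25, 38.19 and 47.68 in rUUO, below 3 of the 4 sham samples, with a change of −0.51 in UUO (SE 0.23, limma adjusted p = 0.345). By limma 0 of 6 tested genes passed in UUO against sham, in rUUO against UUO and in rUUO against sham, against 1.98%, 0.0597% and 1.77% of 13393 genes, and a single gene of the set was at an unadjusted p under 0.05 in each. These were Csf1 in both comparisons with sham and Il34 in rUUO against UUO. Il1a was steady at 1.11 to 1.25 FPKM in the 4 sham samples and had 1.7, 3.3 and 3.4 in UUO, with no overlap but no call (change 0.78, SE 0.45, adjusted p = 0.492). Il34 had 0.6, 1.26 and 1.73 FPKM in UUO and 1.78, 7.39, 4.52 and 7.7 in rUUO, above every UUO sample but within the sham range (rUUO against UUO 1.43, adjusted p = 0.451). Casp1 remained between 1.43 and 7.35 FPKM throughout. None of 13 tested inflammasome, 11 IL-1 family, 14 TNF pathway and 13 NF-κB genes passed limma's test in UUO against sham, with 4, 2, 1 and 5 of them at an unadjusted p under 0.05. The share of all endothelial genes at that unadjusted p was not counted, so that counts at this level are a description only. Of the other lists, Csf2rb rose by 2.11 (adjusted p = 0.0005719), Socs3, a feedback inhibitor of cytokine receptors, by 1.96 (adjusted p = 0.00142), and Osmr, a receptor for oncostatin M, by 1.14 (adjusted p = 0.0337), the last of which was lost in 5 alternatives, among them TPM scaling.

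In stromal cells Il1b, Il1rn, Il6, Casp1 and Csf1 rose in UUO, 5 of the 7 genes tested against sham, while Il34 and Il18 (0.49, limma adjusted p = 0.498) did not pass. The 5 stand against 26.4% of 14033 genes (13.4% higher). Il6, Casp1 and Il1rn, with sham means of 0.0475, 0.42 and 0.47 FPKM, reached the filter through UUO and rUUO and could hardly be called lower. Il6, near 0 in sham with 0, 0, 0.16 and 0.03 FPKM, had 3.29, 0.32, 3.03 and 6.34 in UUO and 1.03, 2.41, 2.49 and 1.49 in rUUO. No UUO or rUUO sample fell into the sham range, and the change was 1.78 in UUO (SE 0.45, limma adjusted p = 0.00834) and 1.41 in rUUO (SE 0.45, adjusted p = 0.0431). The rUUO call was lost under quantile normalization (adjusted p = 0.0615), after rescaling without mitochondrial genes (0.0546), without a filter on low values (0.0958), and when any sham library or rUUO replicate 2, 4 or 6 was left out (0.0679 to 0.105). With a pseudocount of 0.1 the changes were 4.09 and 3.77.

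Casp1 had 0.62, 0.41, 0.16 and 0.5 FPKM in sham stromal cells, 3.02, 2.81, 2.92 and 7.05 in UUO and 1.43, 1.79, 7.52 and 6.05 in rUUO. It rose by 1.73 in UUO (SE 0.43, limma adjusted p = 0.00748) and by 1.67 in rUUO (SE 0.43, adjusted p = 0.0137), with no overlap with sham, and the rUUO call was lost without rUUO replicate 4 (1.36, adjusted p = 0.0513). Nlrp3 stayed at or under 0.46 FPKM in the same samples. Of the 7 tested genes 2 passed in rUUO against sham, Il6 and Casp1, both higher, against 17.2% of genes (11.6% higher). Both reached the filter through UUO and rUUO.

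Il1b and Il1rn rose in stromal UUO samples with a wide spread. Il1b had 1.02, 1.47, 0.85 and 1.19 FPKM in sham, 5.02, 14.83, 4.86 and 6.94 in UUO, and 0.97, 8.39, 8.22 and 0.95 in rUUO, where 2 samples lay inside the sham range and 2 above it. The change was 1.94 in UUO (SE 0.53, limma adjusted p = 0.0121). Il1rn had 0.49, 0.47, 0.92 and 0 FPKM in sham, 15.82, 17.52, 2.12 and 1.0 in UUO, and 2.51, 0.95, 1.47 and 2.54 in rUUO, with a change of 2.21 in UUO (SE 0.61, limma adjusted p = 0.0138) that was lost without UUO replicate 1 (1.77, adjusted p = 0.0502) and without a filter on low values (adjusted p = 0.0566). Neutrophil markers were also higher after UUO: their sum was 0.32 to 1.13 FPKM in sham, 17.4, 60.6, 9.76 and 8.99 in the UUO samples and 5.04, 13.4, 43.3 and 4.67 in the rUUO samples. S100a9 was the 1 of 3 tested neutrophil markers to pass in UUO against sham (change 3.27), and Ly6g was listed at 0 in every stromal sample. In UUO the highest sum and the highest Il1b were both in replicate 2, and in rUUO the 2 highest sums were in replicates 2 and 4, the samples with 8.39 and 8.22 FPKM of Il1b. Those 2 rUUO samples were the lowest of their group in Il1rn, at 0.95 and 1.47 FPKM. The part of these cells in the Il1b and Il1rn values was not tested. Leaving out the libraries with the highest neutrophil sums, UUO replicate 2 and rUUO replicate 4, Il1b in UUO against sham was 1.63 (adjusted p = 0.0319), Il6, Casp1 and Csf1 also passed, and Il1rn did not (1.72, adjusted p = 0.0596). In the same fit Casp1 in rUUO against sham (1.36, adjusted p = 0.0611) and Il34 in rUUO against UUO (2.39, adjusted p = 0.0591) did not pass either. The UUO libraries that remain hold 8.99 to 17.4 FPKM of these markers, so that this fit does not separate them from the stromal cells.

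**Figure D4:**
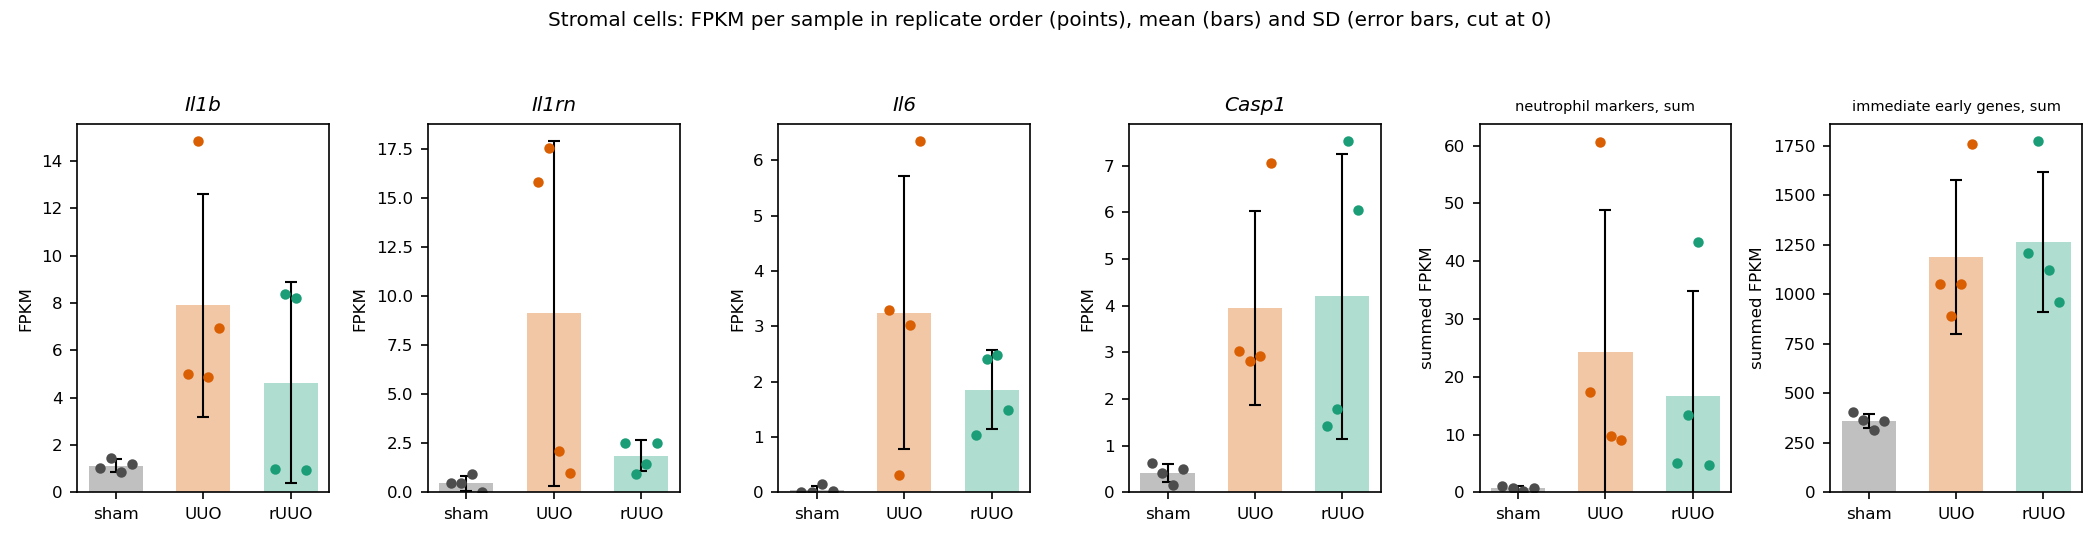
FPKM (y axis) of Il1b, Il1rn, Il6 and Casp1 in stromal cells by surgery (x axis), beside the summed FPKM of 8 neutrophil markers and of 13 immediate early genes in the same samples, with points in replicate order, bars for means and error bars for the SD. Sham samples are low throughout, and the neutrophil sum peaks at 60.6 in UUO replicate 2, the sample with 14.83 FPKM of Il1b.

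Monocyte markers in stromal samples summed to 6.12 to 19.5 FPKM in sham, 74.7 to 139 after UUO and 28.7 to 44.7 in rUUO, nearly all of it Plac8, the 1 of 6 that could be tested, which rose by 3.34 in UUO (limma adjusted p = 1.52e-06). The 9 stromal markers summed to 1304 to 3198 FPKM in sham, 9030 to 15002 after UUO and 6268 to 8500 in rUUO, and 6 of them rose and 3 fell in UUO. Lymphocyte markers in stromal samples summed to 0.24 to 3.15 FPKM in sham and 3.35 to 30.0 in UUO, while the 10 macrophage markers summed to 61.9 to 68.2 FPKM in sham and 32.7 to 52.3 in UUO, where Mertk and Csf1r fell and 6 other tested markers did not pass. All 8 loop of Henle and distal nephron markers fell, from a sum of 467 to 622 FPKM in sham to 33.9 to 64.4 in UUO. Immediate early genes summed to 315 to 404 FPKM in sham, 892 to 1760 after UUO and 961 to 1773 in rUUO. Their part in the other stromal values was not tested.

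In stromal cells 26.4% of all genes were called in UUO against sham, 13.4% higher, and the wider lists are read beside these shares. Il33, an alarmin of the IL-1 family, rose from 8.59 ± 2.10 to 131 ± 10.6 FPKM in UUO (SD, n = 4 each, change 3.81, SE 0.20, limma adjusted p = 2.25e-08). Il1r1, the signalling receptor for IL-1, rose by 2.33 (adjusted p = 1.785e-06) and Irak3, an inhibitor of the same pathway, by 1.94 (adjusted p = 4.18e-05), and these were the 3 of 10 tested genes of that list to pass. Of 11 inflammasome genes 2 rose, the channel gene Panx1 (2.42) and the gasdermin gene Gsdme (1.30), and 2 fell, Ninj1 (−1.10) and Txnip. Of 15 genes of IL-6 signalling 6 rose, among them Socs3 (2.60) and Lif (1.68), and Clcf1 fell by 1.46, a call lost in 6 alternatives. Of 14 TNF pathway genes 3 rose, the largest being Rhbdf2, a partner of the protease that sheds TNF (1.61). Of 13 NF-κB genes 2 rose, Bcl3 (1.78) and Nfkbiz (1.21), and 2 fell, Nfkb1 and Ikbkb, the latter not without a filter on low values or without the libraries highest in neutrophil markers. The median of the lists ran from −0.26 for NF-κB to 0.54 for IL-6 signalling.

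In PT cells 27.9% of all 11416 genes were called higher in UUO against sham (1283 genes under quantile normalization, against 3186), and the lists are read beside that. Of 12 NF-κB subunits and inhibitors 9 rose and none fell in UUO, with Bcl3 at 2.76, Nfkbiz at 2.43 and Rela at 1.92 (limma adjusted p = 2.69e-05, 1.63e-05 and 0.00036), and 6 of the 12 rose under quantile normalization. Of 11 TNF pathway genes 6 rose, among them Birc3 (2.16) and the receptor gene Tnfrsf1a (1.88), and 3 under quantile normalization. Of 11 IL-6 signalling genes 6 rose, led by Socs3 (2.87) and Stat3 (2.61), and 4 under quantile normalization. Of 8 inflammasome genes 3 rose: Txnip from 12.8 ± 4.43 to 141 ± 41.7 FPKM (change 3.37), the adaptor gene Pycard from 1.97 ± 2.13 to 13.7 ± 3.76 FPKM (2.50), and Casp8 (0.78), the last of which was lost in 4 alternatives. Under quantile normalization 2 of the 8 rose and 1 fell. Of 9 other IL-1 family genes 3 rose, Il1r1 (1.78), Myd88 (1.42) and Il18r1 (1.11), and Sigirr fell, whereas 1 rose and 1 fell under quantile normalization, where Myd88 and Il18r1 were lost, as they were without a filter on low values. Txnip rose in PT cells and fell in stromal cells, a difference that was not tested. The medians of these lists were 1.5, 0.97, 0.72, 0.68 and 0.48, beside 0.51 for all genes. Of 3 tested genes of the CSF list Sdc1, which encodes a syndecan that binds IL-34, rose by 2.09. Immediate early genes summed to 34.8 to 66.1 FPKM in sham, 236 to 372 after UUO and 218 to 304 in rUUO PT cells.

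RNA of the cytokines proper stayed low in PT cells. Il1b had 0.51 to 1.2 FPKM in sham and 0.78 to 1.82 in UUO, a change of 0.21 (limma adjusted p = 0.647). Il1rn had 0.04, 0.05 and 0.18 FPKM in sham, 0.46, 4.1, 0.63 and 1.08 in UUO and 2.8, 0.26 and 1.55 in rUUO, with no overlap with sham and a change of 1.04 in UUO (SE 0.47, adjusted p = 0.1004) that passed with a pseudocount of 0.1 (2.73, adjusted p = 0.0381). The other 6 genes did not reach a mean of 1 FPKM over the PT samples. Among them Tnf had 0.11, 2.52 and 4.96 FPKM in rUUO and at most 0.59 in sham or UUO, and Il18 had 0.66, 1.81 and 1.95 in rUUO, above the sham samples, neither of which was tested.

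**Figure D5:**
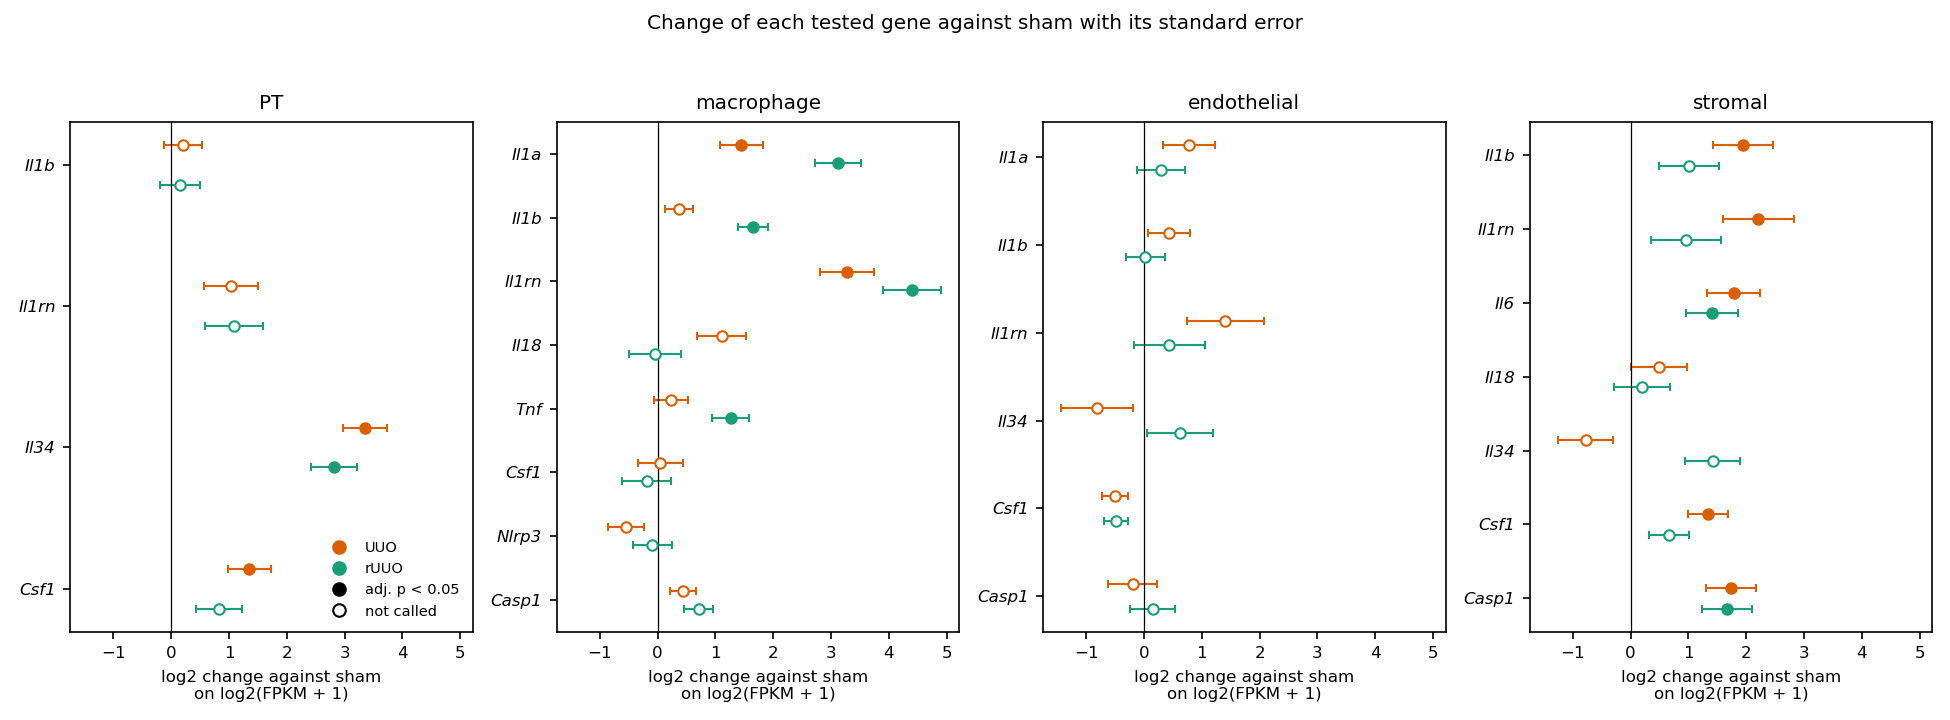
Log2 change on log2(FPKM + 1) against sham (x axis) of each gene tested (y axis) in each population, with error bars for the standard error, colour for UUO or rUUO and filled points for an adjusted p under 0.05. Il34 stands at 3.35 in PT cells and −0.78 in stromal cells in UUO, and Il1rn at 3.28 in macrophages.

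Whether the UUO response differed between populations was tested directly, as the change in PT cells minus that in another population over all 44 samples. Of 9 tested genes, 2 passed against macrophages (15.5% of 14332 genes), 2 against endothelial cells (11.1%) and 3 against stromal cells (29.2%). Il34 passed in all 3, its PT change exceeding that in macrophages by 3.26 (SE 0.82, limma adjusted p = 0.00449), in endothelial cells by 4.16 (SE 0.85, adjusted p = 0.000576) and in stromal cells by 4.13 (SE 0.82, adjusted p = 0.000142). These contrasts share the PT samples, and over all genes their medians were 0.45, 0.40 and 0.51. The Csf1 change in PT cells exceeded that in endothelial cells by 1.86 (adjusted p = 0.0132), which was lost without PT sham replicate 4 (1.62, adjusted p = 0.0587) and under quantile normalization (1.53, adjusted p = 0.0597). The change in PT cells was lower than in stromal cells for Il1b (−1.74, adjusted p = 0.0112) and Casp1 (−1.48, adjusted p = 0.0198). The other call, for Il1a against macrophages (−1.46, adjusted p = 0.0108), restates the macrophage change, since Il1a was at most 0.09 FPKM in PT cells, and Casp1 was likewise at most 0.42 FPKM there. The Casp1 difference was lost without stromal UUO replicate 4 (−1.22, adjusted p = 0.0584) and with a pseudocount of 0.1 (adjusted p = 0.0515). Il1rn, Tnf, Nlrp3 and Il18 passed in none of the 3.

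Finally, the genes whose pattern over the 12 group means of log2(FPKM + 1) was most like each of the set were listed among 19301 genes, as Pearson's r, a description over groups that share samples and population. Nlrp3 was closest to Nlrp1c-ps (r = 0.9995), Il10ra and Pou2f2, and Il1b to Ermap (0.9964), Pik3r5 and Havcr2. Tnf was closest to Tnip3 (0.983), Cd101 and Tlr1, and Casp1 to 5031439G07Rik (0.982), Actr3 and AC164624.1. Csf1 was closest to Heg1 (0.987), Tmtc3 and Pcdhgb1, and Il34 to Shisa4 (0.970), Shroom3 and Cacnb2. For the lower genes the closest were Slc39a14 (0.957), Rgs16 and Rtn4rl2 for Il6, Chp2 (0.940), Gm11795 and Gm4832 for Il1a, 9930022D16Rik (0.970), Gm45053 and Cenpq for Il1rn, and Gm37651 (0.952), Ifi30 and Pla2g7 for Il18.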

How the data were processed

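The authors deposited a single table of FPKM values per gene on mm10 (GRCm38), made from amplified cDNA libraries sequenced on an Illumina HiSeq. The submitters' notes name FastQC, RSEM, Bowtie2 and DESeq2 without roles or versions. Of 46 value columns 44 were used, and 2 that carry the same title could not be assigned to a sample. No 2 columns held identical values. PT, macrophage, endothelial and stromal samples were grouped by the labels as sham, UUO or rUUO, a PT sample whose title names both sham and UUO by its treatment label.

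FPKM values were taken as log2(FPKM + 1), genes with a mean under 1 FPKM over the samples of a fit were left out, and limma 3.58.1 (R 4.3.3) with an intensity trend was fitted within each population, over the sham samples and, for differences between populations, over all 44 samples. Benjamini-Hochberg adjustment covered all genes tested, with a threshold of 0.05. The fold changes understate those of low genes because of the pseudocount. A gene near 0 in sham that reached the filter through the other groups could hardly be called other than higher. The fits within each population were also run on simulated data with independent samples and added changes, and the outcome is not given here. Such data cannot speak to shared mice or to shifts in cell content. Tables and figures used Python 3.11.15, pandas 2.3.3, numpy 2.4.6, scipy 1.17.1 and matplotlib 3.10.9. Gene positions came from GENCODE M21, which held 53274 of the 53465 gene identifiers, and start-site windows from RefSeq (GRCm38.p6).

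The 10 genes and the lists (186 genes, of which 182 were found) were chosen with earlier results of these data known. The lists cover inflammasome, IL-1 family, TNF, IL-6, CSF and NF-κB genes, immediate early genes and markers of each cell type. From each pathway list the text names, per population, at most the 3 genes with the largest change in UUO against sham among those past the threshold whose groups do not overlap. Of genes outside that rule, Txnip and Nfkb1 in stromal cells, Sigirr in PT cells, Tnfaip3 in macrophages and the antisense and overlapping genes were named after their values were seen. Alternatives were a pseudocount of 0.1, no filter, TPM, quantile normalization, rescaling without 37 mitochondrial genes, no trend, the replicate number as a block, a single fit over all 44 samples and leaving out each library. A further alternative without the stromal libraries highest in neutrophil markers was chosen after seeing the data.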

Additional observations from a re-analysis of the deposited data

Results flagged for a closer look

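Of 49 groups of 4 samples with a mean of at least 1 FPKM, 5 had a sample set apart on log2(FPKM + 1), by a gap to its nearest neighbour that exceeds Dixon's critical share of the group's range, where chance gives about 1 in 20. Il1rn in endothelial rUUO replicate 1 had 4.56 FPKM against 0.11 to 0.38 in the others (gap 0.865 of the range). Il34 in macrophage sham replicate 2 had 4.71 FPKM against at most 0.22 (0.886). Csf1 was low in stromal sham replicate 4, at 14.72 FPKM (0.918), and in stromal rUUO replicate 4, at 20.68 FPKM (0.859), the latter a sample with 43.3 FPKM of summed neutrophil markers. Casp1 in stromal UUO replicate 4 had 7.05 FPKM against 2.81 to 3.02 (0.928). Without that library the stromal Casp1 call in UUO against sham was kept.

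The UUO against sham change differed between populations in 7 tests over all 44 samples. The change in PT cells minus that in macrophages was −1.46 for Il1a, which was near 0 in PT cells throughout, and 3.26 for Il34. Against endothelial cells it was 1.86 for Csf1 and 4.16 for Il34. Against stromal cells it was −1.48 for Casp1, −1.74 for Il1b and 4.13 for Il34. The causes were not tested.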

How the results depend on the processing

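Of 81 values of the 10 genes compared over the alternatives, 53 were called, and none of these changed sign. With a pseudocount of 0.1, 25 of the 53 grew by more than 1.5 times, up to 2.67 times, as the construction of that scale implies for low genes, while 3 shrank as much under quantile normalization and 1 after rescaling without mitochondrial genes. Values that were not called changed sign for Il1b in PT cells in UUO against sham under quantile normalization (−0.32), for Csf1 in macrophages with a pseudocount of 0.1 (−0.00109) and, over the fits that each left out a library, for Csf1 in macrophages (−0.216 to 0.416) and Casp1 in endothelial cells (−0.560 to 0.254), all in UUO against sham.

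Counts of called genes that moved by more than 1.5 times are given by setting, and the cause was not tested. In PT cells in UUO against sham 2 fell to 1 without a filter and under quantile normalization. In macrophages 2 fell to 1 in UUO against sham without a filter and with the replicate block, and 0 became 1 in rUUO against UUO in the fit on all 4 populations. In stromal cells 1 fell to 0 in rUUO against UUO without a filter, with the block and without the libraries highest in neutrophil markers. In rUUO against sham 2 fell to 1 without a filter, under quantile normalization, after rescaling and without those libraries, and to 0 with the block. The PT and endothelial difference fell from 2 to 1 under quantile normalization. Some smaller moves, in both directions, were as follows. In PT cells in UUO against sham 2 became 3 with a pseudocount of 0.1 and with the block, where Il1rn passed. In stromal cells in rUUO against sham 2 became 3 with TPM and in the fit on all 4 populations. In stromal cells in UUO against sham 5 became 4 without a filter. Between endothelial and stromal sham cells the main count of 3 ranged from 2 to 4 over the alternatives. Leaving out a library at a time gave 1 to 2 in PT cells in UUO against sham, 1 to 2 in macrophages in UUO and 3 to 4 in rUUO against sham, 4 to 6, 0 to 2 and 0 to 3 in stromal cells in UUO against sham, rUUO against UUO and rUUO against sham, 6 to 7, 6 to 8 and 7 to 8 between macrophages and PT, endothelial and stromal sham cells, and 2 to 3, 1 to 2 and 2 to 3 for the differences of PT cells from macrophages, endothelial and stromal cells.

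The labels do not say whether equal replicate numbers mark the same mouse. Same-numbered deviations correlated with medians of −0.006 to 0.035 across surgeries within a population and of 0.002 to 0.014 across populations within a surgery. In no comparison were all pairs above 0.1, and the highest was 0.159, between sham populations, where 2 of 21 pairs exceeded 0.1. Low correlations do not exclude shared mice, and the main fits treat all samples as independent. With the number as a block, Il1rn passed in PT cells in UUO (1.25, adjusted p = 0.0385), while Il1a in UUO macrophages (adjusted p = 0.0766), Tnf in rUUO macrophages (1.41, adjusted p = 0.172), and in stromal cells Il34 in rUUO against UUO (2.44, adjusted p = 0.0748), Casp1 (1.36, adjusted p = 0.0632) and Il6 (adjusted p = 0.0943) in rUUO against sham did not. Of the other named genes the block lost Casp8 and Il18r1 in PT cells, Il18bp and Csf2rb in macrophages, Osmr in endothelial cells and Clcf1 in stromal cells.

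Over all genes, calls in rUUO against UUO went from 585 to 116 with the block and to 1231 over all 4 populations in stromal cells, from 437 to 160 with the block in PT cells, and from 0 to 86 over all 4 populations in macrophages. In UUO against sham they went from 665 to 1338 and from 265 to 492 over all 4 populations in macrophages and endothelial cells, to 364 and 127 without a filter, and from 3747 to 2479 under quantile normalization in PT cells. In rUUO against sham the block took 459 to 115 in macrophages, 237 to 68 in endothelial cells and 2407 to 1574 in stromal cells, and no filter took 852 to 484 in PT cells. Depth is unknown in absolute terms, and the genes near 1 FPKM, Il1a and Il6 among them, are the least precise.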
